A study of Mus musculus with 2 samples.

Results

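Scleraxis (Scx), mohawk (Mkx) and Six2, which are transcription factors of tendon and limb connective tissue, were measured together with tenomodulin (Tnmd), chondromodulin (Cnmd, formerly Lect1) and keratocan (Kera). The 6 genes were chosen by name among the 15719 genes with values in the wild-type library, and all 6 were found, Lect1 under its newer name Cnmd. RNA came from superficial zone (SFZ) cells, the flat chondrocytes at the surface of articular cartilage, of C57BL/6 mice at postnatal day 5. There was 1 library from wild-type (WT) mice and 1 from Prg4KO mice, named for a knockout of Prg4, the gene for the joint lubricant lubricin. How the Prg4KO allele was made, and how many animals of which sex went into each library, is not given here. Per the labels' protocols, cartilage of the femur ends and the upper tibia was cleared of tendon, ligament and synovium, digested with 0.25% trypsin for 1 hour and with collagenase at 173 U/mL for 1.5 hours, and the cells were seeded on fibronectin.

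Scleraxis is a basic helix-loop-helix factor that marks tendon progenitors and is needed for the formation of force-transmitting tendons. Mohawk is a homeodomain factor that sustains collagen fibril growth in tendon, and Six2 is a homeodomain factor of limb mesenchyme and developing tendon that is best known from kidney progenitors. Tenomodulin and chondromodulin are related type II membrane glycoproteins with a BRICHOS domain and a cysteine-rich C-terminal domain that inhibits blood vessel growth. Tenomodulin is a late marker of tendon and ligament cells and a known target of scleraxis, whereas chondromodulin is made by chondrocytes of avascular cartilage. Keratocan is a small leucine-rich keratan sulfate proteoglycan best known from the cornea, and it is also found in tendon.

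The values were expected counts, which are estimates of the reads from a gene, and FPKM, which is the count per kilobase of transcript and scaled to library size. The libraries held 21619093 expected counts (WT) and 21392574 (Prg4KO). With 1 library per genotype no test of genotype was possible, and intervals below are 95% intervals for counting error only. The deposited Prg4KO values stood out of step with the gene names and were re-paired with them by row order and effective transcript length, so every Prg4KO value below rests on that step. For each of the 6 genes the pair had a probability of 1.00, and the effective length in the Prg4KO library differed from that in the WT library by -0.16% (Six2) to -0.0007% (Mkx). Of the 8 paired genes among the 5 on each side of Cnmd, only 2 had the same offset between gene and row as Cnmd. For the other genes of the set that was 8 of 10 (Tnmd) to 10 of 10 (Six2). All 6 genes kept their partners in a model that gave every row the same chance of having none. Prg4 itself had an FPKM of 593 in WT cells and 0.10 in Prg4KO cells, and that last value rests on row order more than on length. Of 16 listed chondrocyte genes, 15 had a WT FPKM of at least 5, among them Col2a1 at 14594 and Sox9 at 150.

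The 6 genes spanned more than 2 orders of magnitude in FPKM and stood in the same order in both libraries. Cnmd was the most abundant, at an FPKM of 1028 in WT cells (1017 to 1039) and 1508 in Prg4KO cells (1494 to 1521), which placed it 61st and 46th among all genes. Tnmd followed at 321 (315 to 328) and 314 (308 to 321), at ranks 202 and 220. Kera had 104 (101 to 107) and 77.3 (74.7 to 80.0). Among the transcription factors, Scx was the highest at 21.2 (19.4 to 23.2) and 15.0 (13.5 to 16.7). Six2 had 5.40 (4.75 to 6.12) and 4.35 (3.76 to 5.00), and Mkx had 3.09 (2.69 to 3.53) and 2.61 (2.24 to 3.02). No neighbours in this order had overlapping intervals in either library. The smallest step was that from Six2 to Mkx, at 1.75-fold in WT cells and 1.67-fold in Prg4KO cells.

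**Figure D1:**
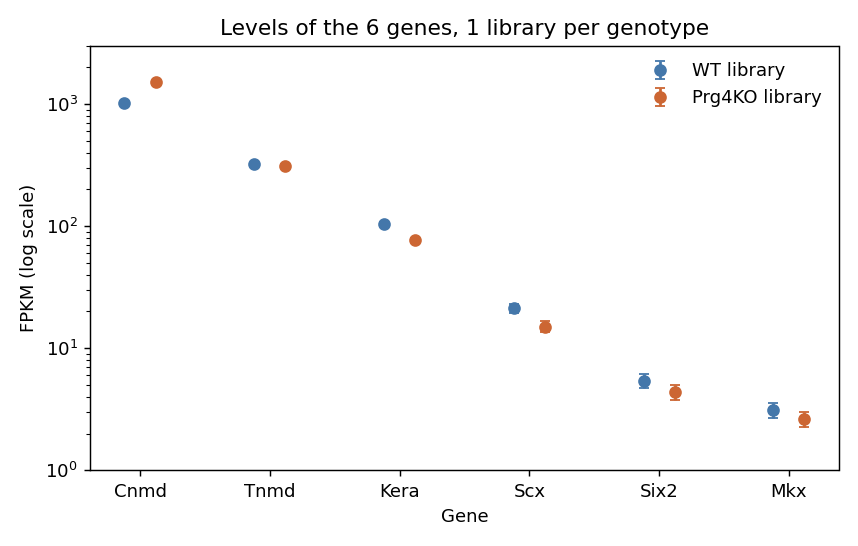
FPKM on a log scale (vertical) of the 6 genes (horizontal) in the WT library (blue) and the Prg4KO library (orange), with bars for the 95% counting interval where it is wider than the point. Cnmd lies higher in the Prg4KO library (1508 against 1028), Tnmd lies almost level (314 against 321), and the other 4 genes lie lower in it.

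Between the libraries, chondromodulin was higher in the Prg4KO library and scleraxis and keratocan were lower, while none of the 6 genes differed by a factor of 2 (log2 ratio of FPKM + 1, at a larger FPKM of at least 5). Of all 7365 genes tested, 0.57% were past that limit in either direction, 0.462% higher and 0.109% lower. None of the 6 differed by a factor of 1.5 either as deposited, against 7.83% of all genes. Scx was lower by more than that factor under each of the 5 rescalings, at -0.64 to -0.59, where 2.72% to 3.75% of all genes were. Kera was so with the TMM (trimmed mean of M values) factor (-0.59, 3.39% of all genes), without the 20 most abundant genes in the scaling (-0.61, 3.75%), and with the trend in transcript length and GC content removed (-0.67, 0.831%). The log2 ratio was below 0 for 5 of the 6 genes, against 30.9% of all genes as deposited and 47.7% at a common median. Fewer cells of a type and less RNA per cell cannot be told apart in such bulk libraries. The all-gene median was 0.15, since FPKM as deposited was on the whole higher in the Prg4KO library. Relative to that median, 5 of the 6 genes lay below and 1, Cnmd, above, and the median of the 6 was -0.37. Of the 6 genes, 5 passed the filter on low values and Mkx did not, whereas the all-gene shares and median cover only genes that passed. Among those 5 genes, 4 lay below the all-gene median, and their median relative to it was -0.41.

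**Figure D2:**
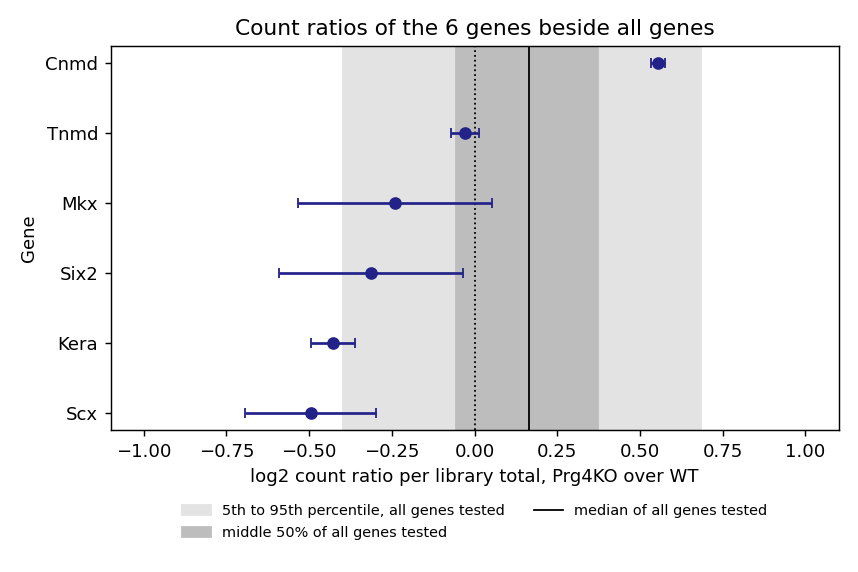
The log2 ratio of expected counts per library total, Prg4KO over WT (horizontal), for each of the 6 genes, with 95% counting intervals. Shading marks the middle 50% and the 5th to 95th percentile of the 7365 genes tested. Cnmd lies above the middle 50%, and Scx and Kera lie just below the wider band.

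Scx, the tendon-progenitor factor, had the lowest ratio of the 6 as deposited, but with the trend removed (-0.43 against -0.67) and at a pseudocount of 5 (-0.39 against -0.41) that of Kera was lower. It had 513 counts in WT cells and 360 in Prg4KO cells, and the count ratio per library total was 0.709 (0.618 to 0.813). The interval excludes 1, so the libraries differed by more than counting error. Its log2 ratio of FPKM + 1 was -0.47, and 2.80% of all genes tested had a lower one. The gene (gene number 20289, 2 exons) lies on chromosome 15 from 76457411 to 76459468 in GRCm38, on the plus strand within the gene Bop1, which is on the minus strand. No exon base is shared with Bop1 in GENCODE M21. Strand use in counting is not stated, and reads from unspliced Bop1 RNA over Scx cannot be told apart from those of Scx. Bop1, a ribosome biogenesis factor, had 1083 and 1157 counts, a ratio of 1.08 (0.993 to 1.17).

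The homeodomain factors were low in both libraries. Mkx (gene number 210719, chromosome 18 from 6934966 to 7004779, 7 exons) had 215 counts in WT cells and 180 in Prg4KO cells. Its count ratio was 0.846 (0.690 to 1.04), so a difference was not detectable at this depth, and the interval includes a ratio as low as that of Scx. Mkx shares 201 exon bases in GENCODE M21 with an unnamed gene model on the same strand, and reads over those bases cannot be assigned to either. Six2 (gene number 20472, chromosome 17 from 85662736 to 85688254) had 246 and 196 counts, a ratio of 0.806 (0.664 to 0.976). With the trend removed its log2 ratio was -0.11 rather than -0.26. Its expected counts were not whole, unlike those of the other 5 genes, as an estimate gives where reads fit more than 1 place. The neighbouring Six3, a homeobox gene of eye and forebrain, was not listed with a WT value. Within each library, the FPKM of Scx was 6.87 times that of Mkx in WT cells and 5.76 times in Prg4KO cells, and these differ by a factor of 0.838 (0.660 to 1.07), which counting error covers.

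Tenomodulin, the marker of mature tendon cells, was nearly equal in the libraries as deposited, but its log2 ratio of -0.03 became -0.15 to -0.22 under the rescalings and -0.28 with the trend in length and GC content removed. It had 9178 counts in WT cells and 8897 in Prg4KO cells, a ratio of 0.980 (0.951 to 1.01). The interval includes 1 and lies above the whole interval of Scx. Of all genes tested, 27.3% had a lower log2 ratio than Tnmd. The gene (gene number 64103, 7 exons) is X-linked, from 133851008 to 133865577. The sex of the mice is not given in the sources used here. The Y-linked genes Ddx3y and Eif2s3y had an FPKM of 3.76 and 2.60 in the WT library against 8.19 and 7.49 in the Prg4KO library. Kdm5d, also Y-linked, had 0.65 and 0.98, a count ratio of 1.52 (1.13 to 2.06). The part of these Y-linked genes, or of the sex of the mice, in the value of Tnmd or of any other gene was not tested. The nearest genes on the X chromosome with an FPKM above 5, the tetraspanin gene Tspan6 and the secreted protein gene Srpx2, had log2 ratios of 0.08 and -0.12; that of Tspan6 was below 0 under each of the 5 rescalings and with the trend removed.

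Chondromodulin alone among the 6 genes was higher in the Prg4KO library. It had 32350 counts in WT cells and 47033 in Prg4KO cells, a ratio of 1.47 (1.45 to 1.49). Its log2 ratio of 0.55 exceeded that of 92.3% of all genes tested. The gene (gene number 16840, chromosome 14 from 79637682 to 79662194, minus strand) has 2 listed RefSeq transcripts. The neighbouring gene Sugt1, a chaperone cofactor, also had a higher level in the Prg4KO library (FPKM 9.58 and 16.8, log2 ratio 0.75), and Elf1, on the far side of Sugt1, had 10.9 and 11.8.

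The start-site regions of Tnmd and Cnmd are given here because scleraxis, like other basic helix-loop-helix factors, binds E-boxes (CANNTG), and these related genes stood apart in their ratios. Each runs 5′ to 3′ from 250 bases before to 50 after the start site on the gene's strand, from RefSeq (GRCm38.p6), at chrX:133850758-133851057 (plus) for Tnmd and chr14:79662134-79662433 (minus) for Cnmd. Capitals mark E-boxes, a motif that reads as an E-box on both strands.
Tnmd: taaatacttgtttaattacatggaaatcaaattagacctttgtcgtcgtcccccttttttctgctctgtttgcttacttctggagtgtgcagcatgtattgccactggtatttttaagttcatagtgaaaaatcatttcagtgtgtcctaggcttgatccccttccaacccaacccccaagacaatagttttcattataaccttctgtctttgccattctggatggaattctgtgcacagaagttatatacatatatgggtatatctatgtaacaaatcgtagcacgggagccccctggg
Cnmd: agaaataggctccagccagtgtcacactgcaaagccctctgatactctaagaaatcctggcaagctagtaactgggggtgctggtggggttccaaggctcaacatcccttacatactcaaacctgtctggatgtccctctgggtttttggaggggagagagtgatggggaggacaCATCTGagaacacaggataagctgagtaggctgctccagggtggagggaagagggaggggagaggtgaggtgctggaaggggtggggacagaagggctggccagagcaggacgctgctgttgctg
The Cnmd window holds 1 E-box, CATCTG, which begins 75 bases before the start site, and the Tnmd window holds 0. The windows of Kera and Six2 hold 0 as well, and none is given for Scx and Mkx. For Cnmd and Kera the start site used lies inside the gene bounds given here, not at their edge. Of 32851 windows of the same 300 bases around start sites, 72.3% hold at least 1, with a mean of 1.39. A match describes letters in this window and is not a binding site shown by these data.

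Keratocan was lower in the Prg4KO library, whereas Lum and Epyc beside it were higher as deposited, under the 5 rescalings and with the trend removed. Kera (gene number 16545, chromosome 10 from 97606962 to 97613688, 3 exons) had 4378 counts in WT cells and 3220 in Prg4KO cells, a ratio of 0.743 (0.710 to 0.778). It stands in a row of small leucine-rich proteoglycan genes. On one side are lumican (Lum), which like keratocan carries keratan sulfate in the cornea, and decorin (Dcn), a regulator of collagen fibril width. Lum had an FPKM of 168 in WT cells and 222 in Prg4KO cells, a count ratio of 1.33 (1.29 to 1.37), and Dcn had 386 and 396, a ratio of 1.03 (1.00 to 1.05). On the other side is epiphycan (Epyc), a proteoglycan of growth cartilage, at 101 and 247, a ratio of 2.44 (2.35 to 2.54). Of these 4 genes, Kera alone had a ratio below 1 as deposited, but the log2 ratio of Dcn was -0.15 to -0.09 under the rescalings and -0.18 with the trend removed. At the protein level keratocan belongs with Lum, fibromodulin (Fmod), Prelp and osteoadherin (Omd) to class II of the family. These did not share a direction either, with log2 ratios from -0.67 for Fmod (FPKM 3628 and 2285) to 0.97 for Omd (10.6 and 21.6), and with -0.04 for Prelp, which was 0.10 with the trend removed.

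**Figure D3:**
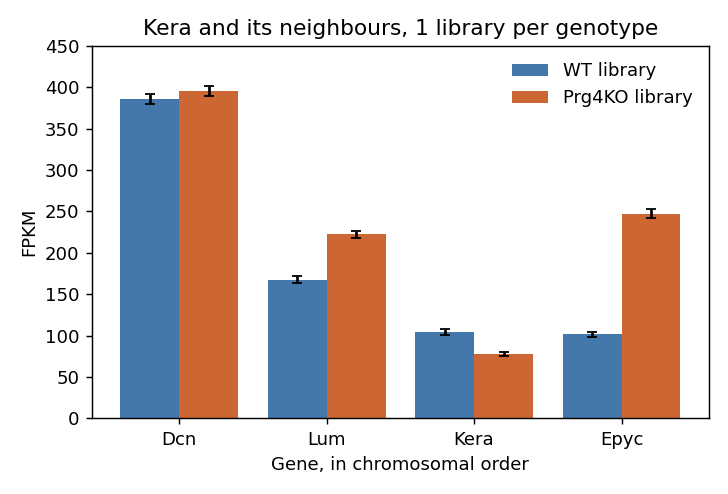
FPKM (vertical, from 0) of Kera and 3 neighbouring proteoglycan genes in their order on chromosome 10, in the WT library (blue) and the Prg4KO library (orange), with 95% counting intervals. Epyc is 2.44-fold higher by count ratio in the Prg4KO library, and Kera has the lower bar there as deposited, while Dcn (386 and 396) is also lower, by log2 ratio, once the libraries are rescaled.

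Ratios of FPKM between genes of the same library do not depend on how the libraries are scaled to each other. They were computed for 14 pairs chosen with the values known, and they are descriptions. They do depend on the trend in length and GC content, and 2 of the 14 lay on the other side of 1 with it removed (computed from FPKM + 1). The Cnmd level was 3.20 times that of Tnmd in WT cells and 4.80 times in Prg4KO cells, which differ by a factor of 1.50 (1.45 to 1.55), or 1.63 with the trend removed. The Cnmd level was 7.04% of that of Col2a1, the main collagen of cartilage, in WT cells and 9.60% in Prg4KO cells, a factor of 1.36 (1.34 to 1.38). With the trend removed that factor was 0.957, on the other side of 1.

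As deposited, scleraxis was lower in the Prg4KO library also when set against its target. The Scx level was 6.62% of that of Tnmd in WT cells and 4.79% in Prg4KO cells. These differ by a factor of 0.724 (0.631 to 0.831), or 0.901 after removal of the length and GC trend. No interval was computed for 0.901, so whether counting error covers that smaller gap was not tested. Against Sox9, the chondrocyte factor that is co-expressed with Scx in progenitors of the junction between tendon and bone, Scx stood at 14.2% in WT cells and 8.94% in Prg4KO cells, a factor of 0.631 (0.551 to 0.724), or 0.639 with the trend removed. Tnmd against Col1a1, the main collagen of tendon, stood at 2.80% in WT cells and 5.61% in Prg4KO cells, a factor of 2.01 (1.95 to 2.07), or 1.31 with the trend removed. Scx against Col1a1 also had a larger value in the Prg4KO library, by a factor of 1.45 (1.27 to 1.66), or 1.18 with the trend removed. The Kera level was 2.87% of that of Fmod in WT cells and 3.38% in Prg4KO cells, a factor of 1.18 (1.13 to 1.23), which was 0.941, below 1, with the trend removed.

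**Figure D4:**
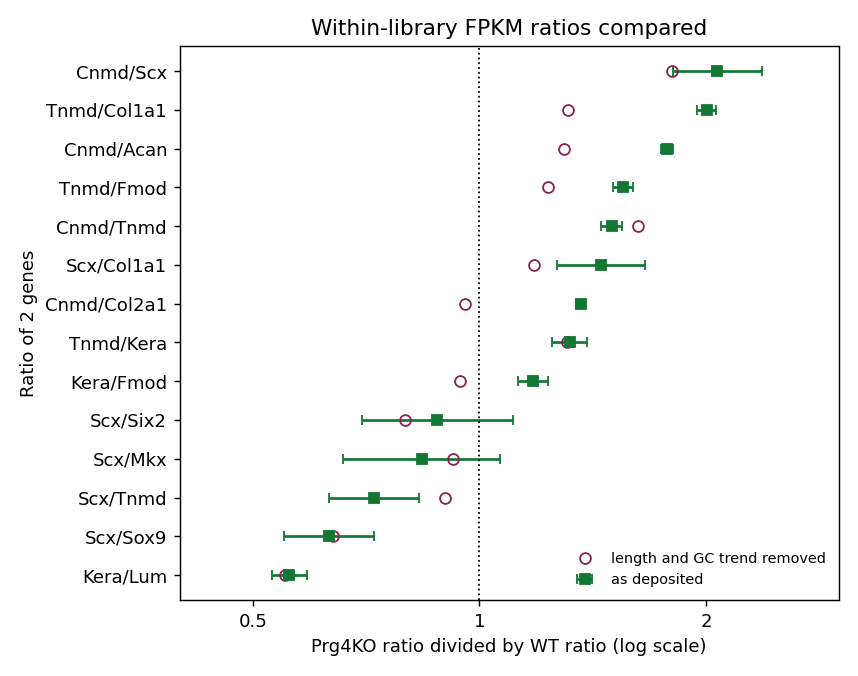
The FPKM ratio of 2 genes of the same library in Prg4KO cells divided by that in WT cells (horizontal, log scale) for the 14 pairs, as deposited with 95% counting intervals (squares) and after removal of the length and GC trend (circles). As deposited, 9 intervals lie above 1, 3 below it and 2 include it; without the trend Cnmd/Col2a1 (0.957) and Kera/Fmod (0.941) lie below 1 and Cnmd/Scx is 1.80 rather than 2.07.

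Other regulators of tendon development lay near Scx, Six2 and Mkx. Of 18 genes listed, 15 passed the filter on low values, and 13 of these lay under the all-gene median. Their median log2 ratio was -0.31, against 0.15 over all genes tested. Past the factor of 2 were 0 of 15, against 0.57% of all genes. Lower by a factor of 1.5 were 0 of 15 as deposited (1.52% of all genes) and 4 at a common median (3.12%). With the length and GC trend removed 0 were (0.831%). Egr1, a zinc finger factor that induces tendon collagens and also responds to cell handling, had an FPKM of 728 in WT cells and 535 in Prg4KO cells (log2 ratio -0.44). Eya2, a cofactor of Six2 and related factors, had 7.13 and 4.70 (-0.51). Gdf5, the joint-forming growth factor, had 6.72 and 4.45 (-0.50). Tgfb2, a ligand that maintains tendon progenitors, had 32.4 and 32.9 (0.02, and below 0 under the 5 rescalings), and Etv5, a factor downstream of FGF signalling, had 18.3 and 21.4 (0.22).

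Genes of tendon matrix lay further below the all-gene median than most of the 6 genes did. Of 22 listed genes, 21 passed the filter, and 20 of these lay below the all-gene median. Lower by a factor of 1.5 were 14 (1.52% of all genes), and 0 were higher by that factor (6.31% of all genes). That count varied with the setting. Under each of the 5 rescalings 15 of 21 were lower by a factor of 1.5 (2.72% to 3.75% of all genes). With the length and GC trend removed 2 of 21 were (0.831% of all genes), although 20 still lay below the all-gene median. The median log2 ratio was -0.62, and it was -0.63 over the 12 that are not collagens. By the log2 ratio of FPKM + 1, Col1a1 alone was past the factor of 2 (0.109% of all genes were lower by it), at an FPKM of 11470 and 5593. Tnxb, the tenascin of loose connective tissue, had 11.1 and 5.27. These FPKM are more than a factor of 2 apart, but the log2 ratio of FPKM + 1 was -0.95. Comp, a pentameric protein shared by tendon and cartilage, had 1183 and 1416 (0.26). Tnmd, at -0.03, lay above the median of the tendon matrix genes as deposited. With the trend removed the gap was small, at -0.43 for Tnmd and -0.53 for the list median, both relative to the all-gene median.

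Cnmd lay among the chondrocyte genes. Of 16 listed genes, all of which passed the filter, 13 lay above the all-gene median and 6 were higher by a factor of 1.5 (6.31% of all genes), with a median log2 ratio of 0.30. At a common median 4 were higher by that factor (2.63% of all genes), and with the trend removed 8 (3.42%). The type IX collagen genes Col9a2 (FPKM 985 and 1466, log2 ratio 0.57) and Col9a3 (936 and 1434, 0.61) had levels and ratios close to those of Cnmd. Matn3, a matrilin of growth cartilage, had 168 and 377 (1.16). Acan, which encodes aggrecan, lay on the other side at 527 and 436 (-0.28), so the Cnmd to Acan ratio differed by a factor of 1.78 (1.75 to 1.81), or 1.30 with the trend removed. Of the BRICHOS domain genes, 5 passed the filter. Itm2a, a membrane protein of cartilage and muscle, had the highest level of them in the WT library at 1489 and 1423 (-0.07), Itm2b had 233 and 262 (0.17) and Itm2c 104 and 111 (0.09), and Itm2c was below 0 under the 5 rescalings and Itm2b under 1 of them.

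**Figure D5:**
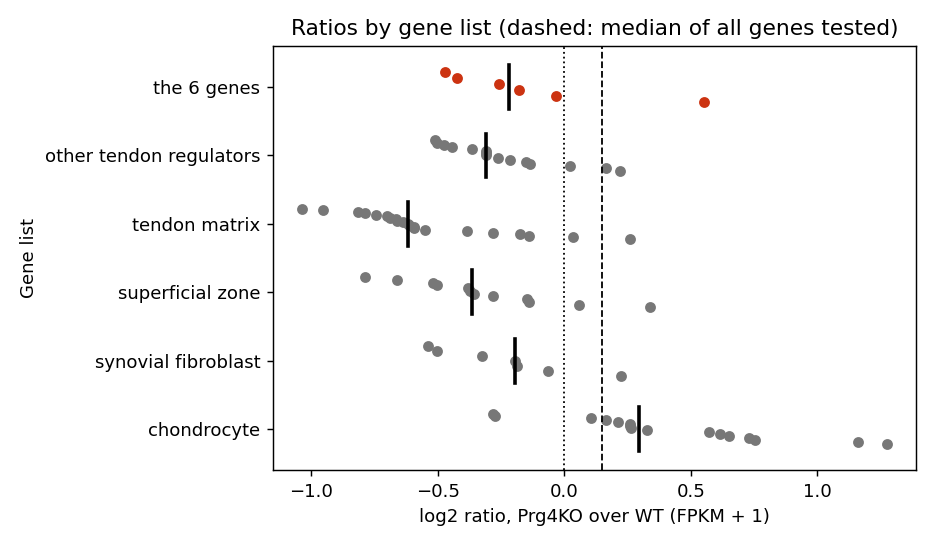
The log2 ratio of FPKM + 1, Prg4KO over WT (horizontal), of the 6 genes (red) and of genes in 5 lists (grey, Prg4 left out, genes passing the filter on low values), with list medians as black bars and the all-gene median of 0.15 dashed. Among the 6 genes, Cnmd (0.55) lies within the range of the chondrocyte list and Scx (-0.47) and Kera (-0.43) within that of the tendon matrix list.

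Other cells that could carry these transcripts were sought by their markers. Of the superficial zone markers, Tnc, Thbs4 and Cilp are also in the tendon matrix list, and Gdf5 is among the other tendon regulators. These lists thus overlap. The 14 superficial zone markers other than Prg4 had a summed FPKM of 765 in WT cells and 540 in Prg4KO cells, and 11 of the 12 that passed the filter lay below the all-gene median. The synovial fibroblast markers (10 of 10 listed) summed to 469 and 405, and 6 of 7 lay below it. The skeletal muscle markers (10 of 16 listed) summed to 11.8 and 14.0 over the 8 with a kept Prg4KO partner. Tnnt3, the 1 that passed the filter, had 5.16 and 8.14, Acta1 had 3.34 and 3.03, and Mylpf had 2.37 and 2.24. Myh1, Myh2, Myh3, Myh4, Myh8 and Myf6 were not listed. The adipocyte markers, sought because adipose tissue also makes tenomodulin, had Fabp4 at 15.5 and 26.6 and Pparg at 1.66 and 3.09. Cfd went the other way at 0.24 and 0.06, and Plin1 had 0.07 in WT cells and no kept Prg4KO partner. Adipoq and Lep were not listed. The endothelial markers (9 of 9 listed), sought because chondromodulin and tenomodulin act on vessels, summed to 93.5 and 89.8. The macrophage and blood markers (9 of 9) summed to 57.7 and 74.6 and the osteoblast markers (8 of 8) to 84.3 and 97.7. For Schwann cells and nerve, 6 of 6 markers were listed, with a summed FPKM of 191 and 204, and 2 passed the filter. The part of any of these cells in the values of the 6 genes was not tested.

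Among factors that promote or restrain vessel growth, 7 of 13 passed the filter and 5 of these were under the all-gene median. Their median log2 ratio was -0.16. With the length and GC trend removed 3 of the 7 were under it, and the list median relative to all genes was 0.04 rather than -0.31. Cnmd was the most abundant transcript when set beside this list. Serpinf1, a secreted inhibitor of vessel growth, had an FPKM of 604 in WT cells and 486 in Prg4KO cells (-0.31). Thbs2, a matricellular inhibitor, had 115 and 75.5 (-0.59), and Timp3 had 60.5 and 76.0 (0.32). Vegfa, the main endothelial growth factor, had 34.5 and 43.1 (0.31), and Kdr, its receptor, had 5.28 and 3.99 (-0.33).

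The genes with levels most like those of each of the 6 were found by distance in log2(FPKM + 1) over the 2 libraries, which is a likeness of 2 values and no more. For Cnmd they were the ribosomal protein genes Rpl18 (FPKM 1013 and 1515) and Rps18 (989 and 1491), and 13 genes lay within a distance of 0.2. Tnmd had Vkorc1 and Arf4 as its nearest, with 10 genes within that distance. Kera had Scpep1 and the limb homeobox gene Pitx1 (100.1 and 78.9), with 21 genes, and Scx had Itprip and Cdh13, with 38. Six2 was nearest to Snx33 and Klf11, with 158 genes within that distance, and Mkx to Mmab and Itpripl1, with 225.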

How the data were processed

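Polyadenylated RNA was measured in 2 libraries, WT and Prg4KO. Per the file headers, the authors deposited expected counts and FPKM per gene and library, with a gene length. HISAT2, Bowtie2 and RSEM are named with the build mm10 in the submitters' processing notes, without versions. Genes at 0 were not listed. The members and lists were chosen with earlier results of these data known.

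Of the deposited table, 15719 genes had WT values and 15973 rows had Prg4KO values. The correlation of log2 FPKM between the columns was 0.96 for the first 20 rows and 0.0841 for the rest. With genes in text order of their gene numbers, a pair hidden Markov model gave each pair a probability from row order and effective length (count over FPKM); levels were not compared. A row could lack a partner with probability 0.002 plus 0.4 falling by a factor e per 3 counts. Pairs of at least 0.95 were kept (14907 genes). The pairing was tested on simulated data.

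Log2 ratios used FPKM with a pseudocount of 1, and a larger FPKM of at least 5 for counts of genes; that filter left 7365 genes. Count intervals are exact Poisson intervals, count ratios have exact binomial (Clopper-Pearson) intervals, and within-library ratios have intervals from the summed Poisson variances on the log scale. The named genes were the 6 members, in each list those with the 3 highest WT FPKM and the 2 lowest and 2 highest ratios, given here in part, and the 2 nearest genes per member. Tgfb2, Itm2c, Elf1, Tspan6, Srpx2, Sugt1, Ddx3y, Kdm5d, Kdr, Pparg, Plin1, Prelp, Col9a3 and the chromosomal neighbours were added after their values were seen. Scaling, pseudocount, filter, pairing and a trend in length and GC content (GENCODE M21 transcripts) were varied. Python 3.11.15, numpy 2.4.6 and scipy 1.17.1 were used.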

Additional observations from a re-analysis of the deposited data

How the results depend on the processing

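All 6 genes kept the sign of their log2 ratio under the 15 alternatives tried, and none passed a factor of 2 under any of them. Most of these alternatives could not change a sign. The pseudocount, filter and pair-probability settings cannot do so for any gene. The rescalings lowered every ratio, so they could do so only for Cnmd. Scaling moved Tnmd, Cnmd and Kera by more than their counting intervals. After rescaling to a common FPKM sum they had log2 ratios of -0.18, 0.41 and -0.57, at a common median -0.17, 0.41 and -0.57, at a common upper quartile -0.15, 0.43 and -0.55, at a common sum without the 20 most abundant genes -0.22, 0.37 and -0.61, and with the TMM (trimmed mean of M values) factor -0.20, 0.39 and -0.59. With the trend in transcript length and GC content removed they were -0.28, 0.42 and -0.67. Tnmd was thus level in the libraries as deposited but lower in the Prg4KO library by up to 0.28 in log2 under these alternatives. The median of the 6 relative to all genes was -0.37 as reported and lay between -0.45 and -0.24 under the alternatives.

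The number of genes past a factor of 2 was 34 higher and 8 lower. It was 54 higher at a pseudocount of 0.1, and 11 and 3 at a pseudocount of 5. It was 16 and 18 at a common sum, 16 and 17 at a common median, 17 and 14 at a common upper quartile, 13 and 20 without the 20 most abundant genes, 14 and 19 with the TMM factor, and 18 and 5 with the trend removed. The share higher was 81.0% as deposited and 39.4% to 54.8% under the rescalings. The chondrocyte median relative to all genes was 0.15, and 0.40 with the trend removed, that of tendon matrix was -0.77 and -0.53, and that of vessel growth factors was -0.31 and 0.04. Why these alternatives differ was not tested. No paired analysis was possible because each genotype had 1 library. Depth limited Mkx, at 215 and 180 counts, and Six2 most.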
